A study of Mus musculus with 2 samples.

Results

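The 29 genes described here encode transcription factors that pattern the embryonic face and teeth, and they were taken by symbol from a fixed list: Msx1, Msx2, Dlx1 to Dlx6, Prrx1, Prrx2, Alx1, Alx4, Barx1, Barx2, Pax9, Pax3, Pitx1, Lhx6, Lhx8, Twist1, Twist2, Tbx15, Tbx18, Foxf1, Foxf2, Six2, Shox2, Dach1 and Osr2. They are 29 of the 32285 genes counted, and all 29 were detected in each library. The study's title concerns the resolution of periodontitis in diabetic mice, and the data are 2 single-cell RNA libraries from the mouse maxillary periodontium, the gum, ligament and bone around the upper teeth. The labels call the libraries 377P and RP and give nothing more on what sets them apart: no genotype, strain, treatment, time, age or number of animals, and neither is named a control. Each title has 1 library, so no difference between the libraries was tested, no p-value is given, and library preparation and condition cannot be told apart. Intervals given with levels and ratios are exact 95% Poisson intervals that cover counting error only.

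The jaws and teeth form from cranial neural crest cells that move into the first pharyngeal arch and from the oral epithelium that covers it. Nested Dlx genes give the arch its upper and lower identity, Msx1, Pax9, Barx1, Lhx6 and Lhx8 mark and instruct the mesenchyme of tooth and palate, Pitx1 and Dlx3 act in the oral and tooth epithelium, and Twist1, Prrx1 and Prrx2 keep mesenchyme undifferentiated and growing. Several of these genes stay active in adult jaw connective tissue as a record of where the cells came from, while jaw mesenchyme derived from the first arch is known for the absence of Hox gene activity.

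Most of these proteins are homeodomain factors, and many homeodomains bind a TAATTA core. A search of the RefSeq promoter windows of GRCm38.p6, which run from 250 bases before to 50 after each start and were at hand for 17 of the 29 genes, found TAATTA on either strand in 2 genes, Prrx1 and Msx2. The same letters are in 5.29% of all 32851 windows. The stretches that hold the match are shown 5′ to 3′ on the gene's strand, with the match in capitals: for Prrx1, 190 bases upstream of the annotated start (chr1:163313711-163313900, minus strand), and for Msx2, a stretch of 30 bases (chr13:53472950-53472979, minus strand). The Msx2 stretch lies before the start on which its window was built, but within the gene as GENCODE places it.
Prrx1: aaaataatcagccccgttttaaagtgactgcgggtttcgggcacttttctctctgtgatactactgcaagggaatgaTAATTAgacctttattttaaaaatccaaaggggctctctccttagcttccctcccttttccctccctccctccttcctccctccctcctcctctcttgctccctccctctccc
Msx2: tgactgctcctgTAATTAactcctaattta
The match is a description of the letters, and nothing here measures binding. The 17 genes' windows were rich in G and C, with a median of 63.3% against 52.7% over all windows. The 6 Dlx genes lie in 3 pairs on opposite strands, Dlx1 and Dlx2 9.426 kb apart on chromosome 2, Dlx3 and Dlx4 15.15 kb apart on chromosome 11, and Dlx5 and Dlx6 9.236 kb apart on chromosome 6. Some members overlap a gene on the other strand, among them Shox2 with Rsrc1, Alx4 with Ext2, Pax9 with Slc25a21, Dlx1 with Dlx1as, Dlx4 with Dlx4os and Dlx6 with Dlx6os1, and whether the counting used strand is not given in the sources used here, so their counts could include the neighbour's RNA.

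After filtering, 14515 cells of 377P and 16721 of RP were kept, with medians of 5102 and 4301 UMIs (unique molecules of RNA) per cell. Cells were grouped into classes from marker genes, without using any of the 29 genes, and 8.44% and 10.3% of cells stayed without a class. Besides cells of gum and ligament, the tissue held gland or respiratory epithelial cells (227 and 1520) and neuronal cells (71 and 23). The neuronal cells had Omp, Stoml3 and Gfy among their leading genes. The libraries stood apart in 3 classes: 99.8% of the 377P fibroblasts fell in 1 cluster and 84.4% of the RP fibroblasts in another, perivascular cells split with 99.1% and 98.7%, and the main epithelial cluster also differed. Blood endothelial cells of both fell in 1 cluster, as did the 118 and 166 neutrophils, and 71.8% and 81.2% of the gland cells shared a cluster. The libraries share 82 cell barcodes. Free RNA was judged from lymphocytes (B, plasma, T and NK cells), which are not known to use most of these genes. Summed RNA of 15 gland markers in lymphocytes was 3130 CPM in 377P (counts scaled to a class total of 1000000) and 18226 in RP. Nasal secretory markers went the other way: 8 of them, Scgb1c1 and Bpifb3 included, summed to 358 to 393 CPM in the epithelial clusters of 377P. In those of RP the sum was 3.04 to 3.83 CPM. A cluster without a class, with 443 cells of 377P and 0 of RP, had these markers at 5123 CPM.

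The genes together took up 1642 CPM of fibroblast RNA in 377P and 1608 in RP. Perivascular cells, the smooth muscle cells and pericytes of vessel walls, had 1097 and 1006 CPM, epithelial cells 263 and 348, and lymphocytes 79.9 and 101. Over 12 classes, 24 of the 29 genes had their highest level in the same class in both libraries, against 62.6% of 16364 genes with enough counts. That class was the fibroblast for 12 genes (5.66% of all genes), the perivascular cell for 3 (5.55%), the epithelial cell for 6 (7.23%), and the blood endothelial cell (3.81%), the neutrophil (3.69%) and the Schwann cell (8.47%) for 1 each. It was the T or NK cell (4.9%), the dendritic cell (2.12%), the gland cell (5.9%), the lymphatic endothelial cell (4.61%), the monocyte or macrophage (3.42%) or the B or plasma cell (7.23%) for 0. In 17 of the 29 genes, the highest level was in fibroblasts or perivascular cells in each library, against 11.7% of all genes. The 5 genes with different classes in the 2 libraries were Msx1, Dlx2, Alx1, Alx4 and Barx2.

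**Figure D1:**
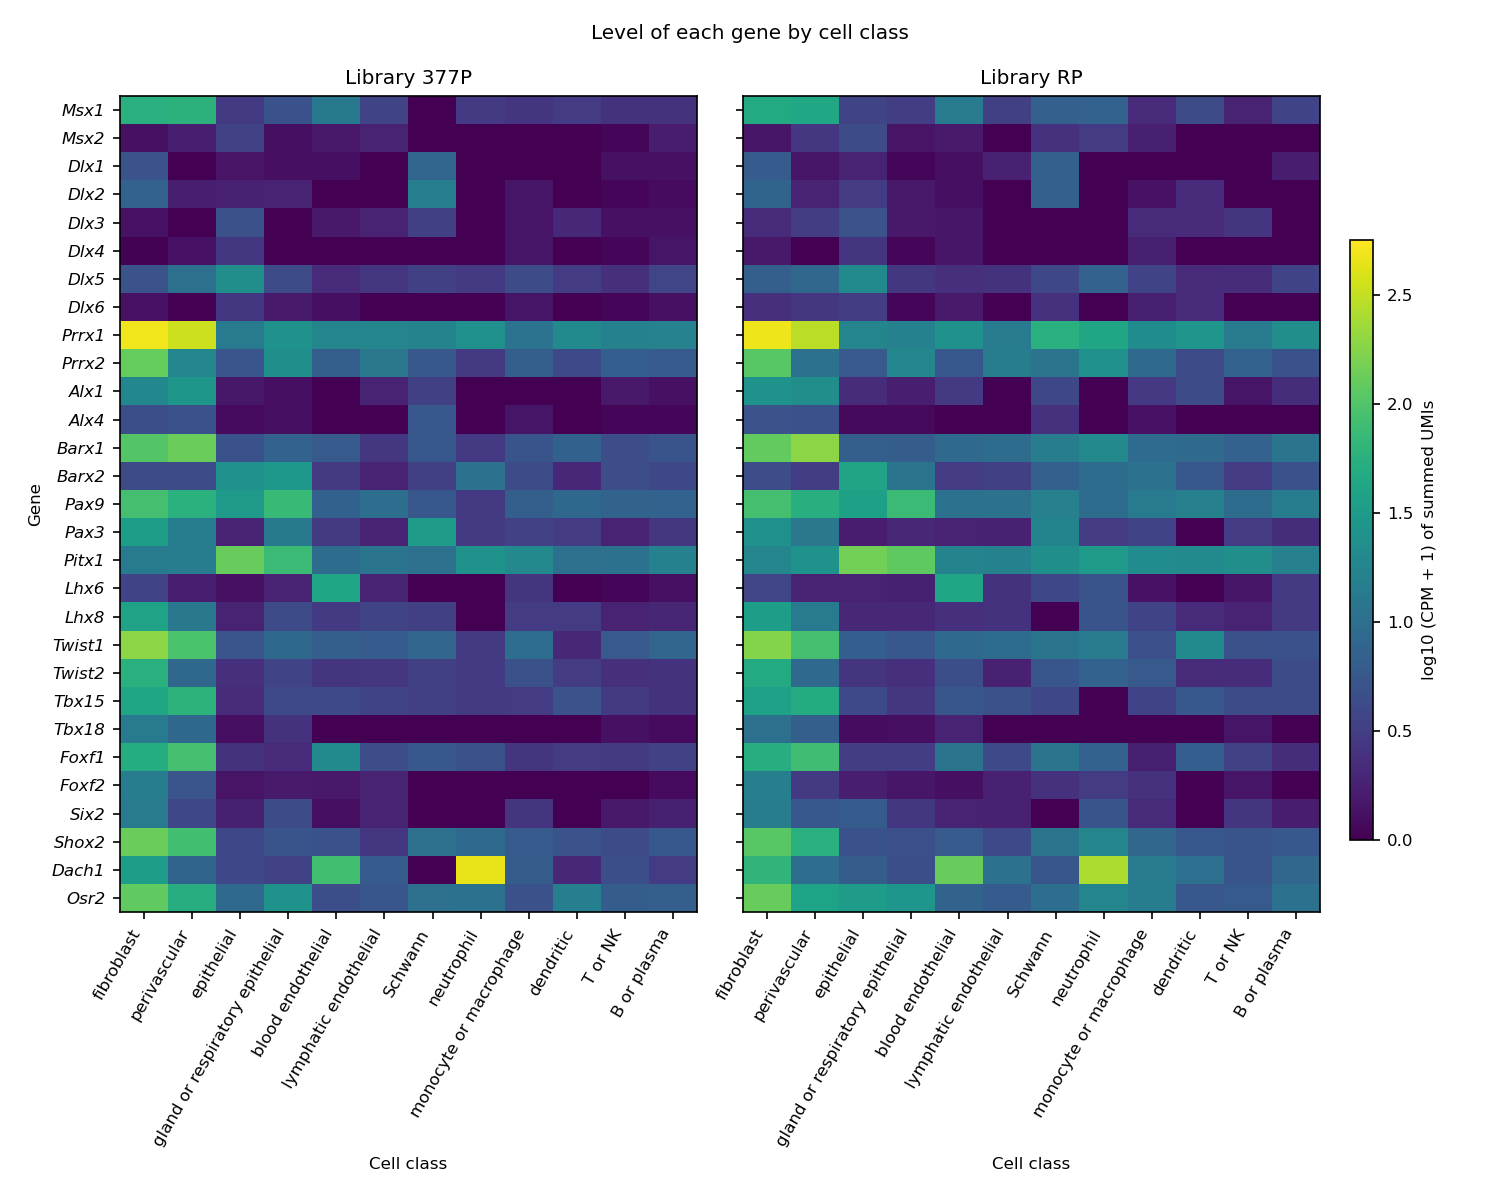
Level of each of the 29 genes (rows; colour is log10 of CPM plus 1, from UMIs summed per class) in the 12 cell classes (columns) of 377P, left, and RP, right. Most genes are highest in the fibroblast and perivascular columns, Pitx1 and Dlx5 in the epithelial column, Lhx6 in blood endothelial cells and Dach1 in neutrophils.

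In fibroblasts, the paired-type homeobox gene Prrx1, which marks limb and craniofacial mesenchyme, stood at 494 CPM in 377P (485 to 504) and 476 in RP (467 to 485), 32.1 and 28.8 times the lymphocyte level. With every cell thinned to 2000 UMIs, 52.4% of the 377P fibroblasts and 53.5% of the RP fibroblasts held a Prrx1 UMI (82.2% and 73.7% unthinned), against 3.04% and 2.83% of lymphocytes (5.20% and 4.86% unthinned). Thinning left out 85 and 250 shallower fibroblasts and 1041 and 464 lymphocytes. Its close relative Prrx2 was at 125 and 108 CPM in fibroblasts, and its second class was 5.64-fold lower in 377P and 4.69-fold lower in RP. The bHLH factor Twist1, which keeps mesenchyme undifferentiated, was at 186 and 172 CPM, 2.0 and 1.99 times its perivascular level. Twist2, its paralogue of the dermis, was at 54.5 and 46.7 CPM and 7.28 and 6.02 times its perivascular level, so the paralogues differed in how far they were shared with vessel-wall cells.

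Pax9, Osr2, Shox2, Lhx8 and Pax3 were also highest in fibroblasts. Pax9, needed for tooth and palate, was at 85.0 CPM in 377P and 86.5 in RP, with gland cells next at 71.6 and 74.3. Osr2, a zinc-finger factor that limits the tooth field, was at 119.9 and 128 CPM, and Shox2, a homeobox gene of the palate and jaw joint, at 131 and 109. Lhx8, a LIM factor of tooth mesenchyme, was at 37.8 and 32.5 CPM, and Pax3, of neural crest and muscle precursors, at 34.0 and 22.9. The Pax3 level of Schwann cells could not be set apart from it, at 32.4 CPM in 377P (17.7 to 54.3) and 16.3 in RP (8.11 to 29.1). Members with fewer counts were Foxf2, a forkhead factor of the palate, at 13.4 and 14.1 CPM, Six2 at 12.9 and 13.7, and Tbx18 at 12.2 and 9.45, all at least 10.8 times the lymphocyte level.

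In perivascular cells, Barx1, a homeobox gene of molar and stomach mesenchyme, was at 130.4 CPM in 377P (117 to 145) and 184 in RP (172 to 197), against 103 and 120.5 in fibroblasts. Foxf1, a forkhead factor of mesenchyme around gut and vessels, was at 86.6 and 80.0 CPM, against 49.2 and 50.9 in fibroblasts. Tbx15, a T-box factor of skin and skeletal mesenchyme, was at 58.8 and 48.1 CPM, against 40.2 and 36.1. For these 3 genes the intervals of the classes did not overlap in either library. Prrx1 at 350.4 and 288 CPM, Twist1 at 93.0 and 86.6 and Shox2 at 81.6 and 55.0 were lower than in fibroblasts but far over the lymphocyte level of 3.81 to 16.5 CPM for these genes. Msx1, a homeobox gene of tooth mesenchyme, was shared: 54.3 and 46.8 CPM in fibroblasts against 58.1 and 43.8 in perivascular cells, a gap of 1.07-fold in each library with the order turned. Alx1, needed for the frontonasal skeleton, was likewise at 18.4 and 24.0 CPM in fibroblasts and 27.8 and 21.8 in perivascular cells, and Alx4 was at 4.10 CPM or less in both, with 0.109 and 0 in lymphocytes.

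The epithelium had a set of its own. Pitx1, a bicoid-type homeobox gene of the oral epithelium, was at 128 CPM in 377P (125 to 131) and 145 in RP (141 to 149), 10.3 and 7.62 times the lymphocyte level, and at 73.7 and 116 CPM in gland cells. Dlx5 was at 22.1 and 19.6 CPM, and its linked partner Dlx6 at 1.76 and 2.19. Dlx3, of epidermis and enamel epithelium, was at 3.82 and 4.06 CPM, and its partner Dlx4 at 1.78 and 1.66. The lymphocyte levels in 377P and RP were 2.07 and 1.78 CPM for Dlx5, 0.218 and 0 for Dlx6, 0.327 and 1.02 for Dlx3, and 0.273 and 0 for Dlx4, where a count of 0 in the RP lymphocytes allows up to 0.762 CPM. Both members of these pairs were thus highest in the same class, on counts of 69 to 1128 UMIs. The shared top class did not hold for Dlx3 and Dlx4 with doublets kept. It did not hold for Dlx6 with each library clustered alone or with cells weighted equally. Msx2, of skull and enamel epithelium, was at 2.45 and 3.41 CPM, with 0.382 and 0 in lymphocytes. Barx2, a homeobox gene of oral and gland epithelium, was at 23.6 and 39.1 CPM in epithelial cells and at 28.5 and 10.4 in gland cells, with 3.22 and 2.79 in lymphocytes. Pax9 was at 29.2 and 35.8 CPM in epithelial cells, below fibroblasts and glands in each library. Dlx1 and Dlx2, the pair of the upper jaw, were not part of this set: Dlx2 was at 6.39 and 6.73 CPM in fibroblasts and 0.804 and 2.11 in epithelial cells, and Dlx1 led in Schwann cells on only 3 and 4 UMIs, with 4.03 and 5.30 CPM in fibroblasts. Lymphocytes had 0.164 and 0 CPM of Dlx2 and 0.327 and 0.254 of Dlx1.

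Outside the connective tissue and epithelium, 2 members stood out. Lhx6, a LIM homeobox gene known for jaw mesenchyme and interneurons, was at 41.3 CPM in 377P (34.9 to 48.5) and 40.5 in RP (35.8 to 45.6) in blood endothelial cells. That was 189 and 39.8 times the lymphocyte level of 0.218 and 1.02 CPM, on 4 lymphocyte UMIs in each library, and 16.1 and 9.66 times the next class. In fibroblasts, Lhx6 had 2.56 and 2.76 CPM. Dach1, a transcriptional co-regulator of limb and eye development, was at 454 CPM in the neutrophils of 377P (398 to 516) and 256 in those of RP (212 to 305). After thinning, 35.7% of 84 neutrophils and 35.3% of 68 held a Dach1 UMI (35.6% and 22.9% unthinned), against 0.452% and 1.23% of lymphocytes (0.836% and 1.49% unthinned); thinning left out 34 and 98 neutrophils. All 7 neutrophil markers, S100a8 and S100a9 among them, were detected in these cells. Blood endothelial cells came next with 81.5 and 129 CPM of Dach1, then fibroblasts with 34.0 and 62.7.

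Between the libraries, few of these genes were at least 1.5-fold apart in fibroblasts, a share near that of all genes. Of 25 members with at least 50 UMIs, 1 was at least 1.5-fold higher in RP, where 4.72% of 14640 genes were, and 0 were that much higher in 377P, where 4.51% were. The median log2 ratio of RP over 377P was 0.07 over the 25 members and -0.03 over all genes. Msx2, Dlx3, Dlx4 and Dlx6 had too few fibroblast UMIs to be compared. The 1 member past the limit was Dach1, at 62.7 against 34.0 CPM, a ratio of 1.84 (1.68 to 2.02). At the other end, Pax3 was 1.48-fold higher in 377P (1.32 to 1.67) and Tbx18 1.29-fold (1.07 to 1.56). Prrx1 at 0.964 and Pax9 at 1.02 differed little in ratio.

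**Figure D2:**
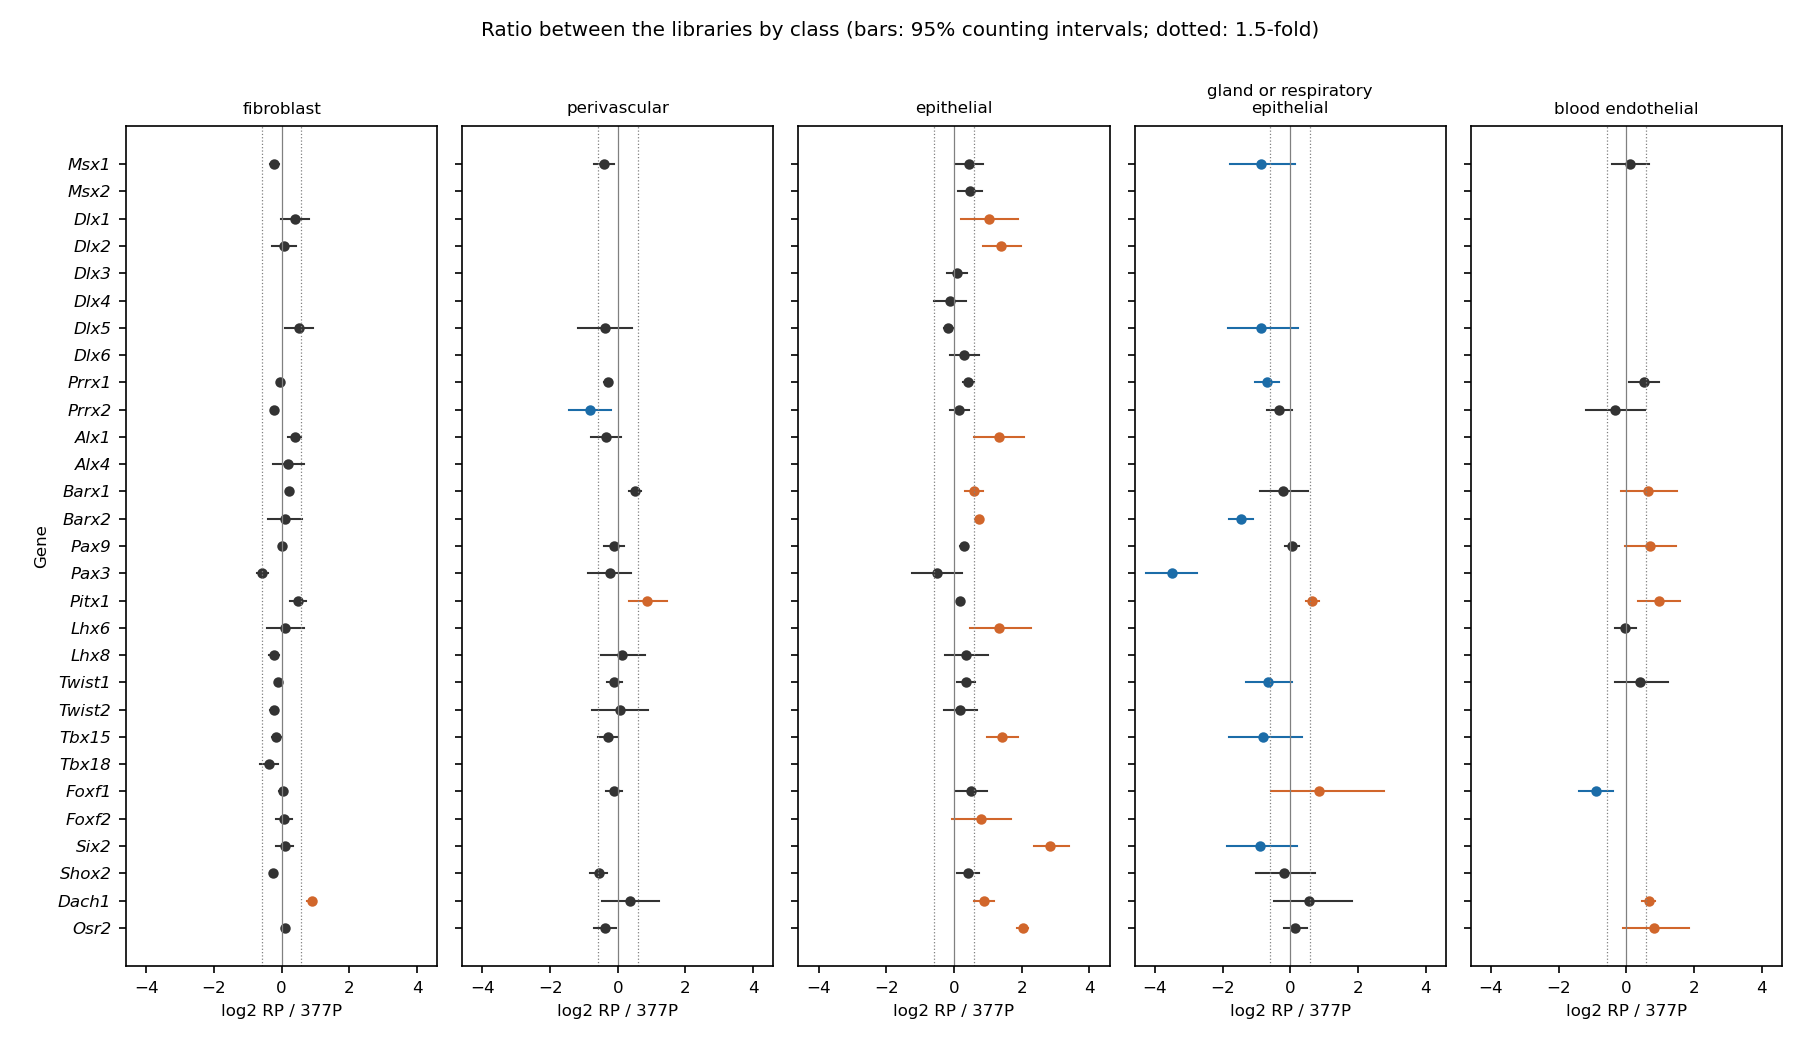
Log2 ratio of RP over 377P (x axis) for each member with at least 50 UMIs in 5 cell classes, with exact 95% Poisson intervals, dotted lines at 1.5-fold, and colour for members past it (orange higher in RP, blue higher in 377P). Fibroblast points lie near 0 except Dach1, Six2 and Osr2 lie farthest to the RP side in epithelial cells, and Pax3 lies farthest to the 377P side in gland cells.

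The Dach1 difference was not even across the connective tissue. Fibroblasts were subclustered in each library separately and 9 subsets were matched between libraries, with 2465 of 2668 cells of 377P and 3781 of 3933 of RP in a matched subset. Profiles of the matched subsets correlated between libraries at 0.650 to 0.877, with 0.734 in subset 4. Subset 4 was nearest to papillary or upper dermal markers in 377P and to Pcsk2-type markers in RP, so it may not hold the same cells. Dach1 was 2.13-fold higher in RP in subset 1 (Opcml, Ccn3 and Ccl2 leading; 1.86 to 2.45), 2.78-fold in subset 2 (1.66 to 4.74) and 3.50-fold in subset 4 (Pcdh10, Lgr5 and Cilp leading; 2.72 to 4.56). The difference was smaller in subsets 5 and 6, at 1.34 and 1.21-fold with intervals that reach below 1. In subset 8 it was turned, with 64 UMIs in 75 cells of 377P and 3 in 92 cells of RP. Perivascular marker RNA in subset 8 was 3424 CPM in 377P and 1139 in RP, and its part in the result was not tested. With fibroblasts chosen by marker gates in place of clusters, the log2 ratio of Dach1 was 0.58 instead of 0.88, just under the 1.5-fold limit.

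In perivascular cells, 17 members had enough counts, with 1 higher in RP (4.79% of all genes) and 1 higher in 377P (4.44%). Prrx2 was 1.76-fold higher in 377P (1.15 to 2.69), on 49 and 46 UMIs. Its log2 ratio of -0.82 was -0.31 with doublets kept and -0.56 with cells weighted equally, both under the limit. The 377P cells also held more fibroblast marker RNA, 2866 against 2172 CPM. The part of fibroblast RNA in the Prrx2 difference was not tested. Pitx1 was 1.83-fold higher in RP (1.26 to 2.72), but stood at only 1.09 and 1.30 times the lymphocyte level, and with doublets kept its log2 ratio was -0.091. Just inside the limit, Barx1 was 1.41-fold higher in RP (1.25 to 1.6) and Shox2 1.49-fold higher in 377P (1.24 to 1.78). Over the 17 members the median log2 ratio was -0.25, and over all genes -0.04.

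Blood endothelial cells had 11 members with enough counts, 5 higher in RP (5.99% of all genes) and 1 higher in 377P (5.31%). Dach1 was 1.58-fold higher in RP (1.38 to 1.81), at 129 against 81.5 CPM, and Foxf1 1.86-fold higher in 377P (1.32 to 2.63), at 19.5 against 10.5. Both genes were over the lymphocyte level in each library, 28.7 and 24.2 times for Dach1 and 8.96 and 5.16 times for Foxf1. The other 4, Pitx1, Osr2, Pax9 and Barx1, were at 0.646 to 1.30 times the lymphocyte level, that is, at the level of free RNA. Lhx6 had a ratio of 0.980 (0.799 to 1.21).

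Epithelial cells had 11 members past the limit, all higher in RP. Of 27 members with enough counts, 11 were at least 1.5-fold higher in RP, where 16.3% of 15387 genes were, and 0 were higher in 377P, where 3.37% were. The median log2 ratio was 0.44 over the 27 members and 0.04 over all genes. Six2, a homeobox gene of nephron and craniofacial progenitors, was at 0.745 CPM in 377P and 5.38 in RP, a ratio of 7.22 (5.10 to 10.5). Osr2 was at 7.73 and 31.6 CPM, a ratio of 4.08 (3.65 to 4.58), and Barx2 at 23.6 and 39.1, a ratio of 1.65 (1.53 to 1.78). These 3 genes stood over free RNA in RP, at 4.23, 4.6 and 14.0 times the lymphocyte level. In 377P, lymphocytes had 0.654 CPM of Six2, 5.62 of Osr2 and 3.22 of Barx2. The 377P side of the Six2 and Osr2 ratios was thus near the level of free RNA, and that of Barx2 was not. Dlx2 had a ratio of 2.63, Dlx1 of 2.04 and Foxf2 of 1.75, all on 88 UMIs or fewer per library. The other 5, Tbx15 at 2.68, Lhx6 at 2.52, Alx1 at 2.5, Dach1 at 1.85 and Barx1 at 1.5, were at 0.652 to 1.61 times the lymphocyte level. All 8 blood endothelial markers were also higher in the RP epithelial cells, with 86.7 against 41.9 CPM in sum, and their part in the ratios was not tested.

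The epithelial clusters differed between the libraries, and Osr2 and Six2 were highest in cluster 21. Cluster 1 was almost wholly 377P (2462 against 1), and cluster 16 almost wholly RP (1801 against 13). Whether the clusters mark kinds of cell or only set the libraries apart was not tested. Cluster 21, led by Psca, Reg3g, Sprr1a and Mal, made up 31.7% of the RP epithelial cells (1207 cells) and 1.02% of the 377P epithelial cells (34 cells). Cbr2, Lypd2, Cyp2f2 and Cyp2a5 were also among its leading genes. Its match to marker genes scored 2.91 for epithelial cells and 2.32 for gland or respiratory epithelial cells, so its class was not clear-cut. In cluster 21, Osr2 was at 73.4 CPM in RP and 22.5 in 377P, and Six2 at 14.6 and 22.5. In the 4 other epithelial clusters, Osr2 was at 7.04 to 10.4 CPM and Six2 at 0.352 to 0.876. Barx2 was at 55.1 and 53.2 CPM in cluster 21, against 22.3 to 33.7 in the others, and Dlx5 was lower there, at 10.3 and 4.09 CPM against 22.1 to 26.2. In the 34 cells of 377P, Osr2 and Six2 rested on 11 UMIs each (11.2 to 40.3 CPM) and Dlx5 on 2 (0.496 to 14.8). A cluster of 443 cells found in 377P, led by the secretory genes Scgb1c1, Bpifb3 and Chil4 and left without a class, had a like profile: Osr2 at 46.3 CPM, Six2 at 15.6, Barx2 at 44.0 and Pax9 at 52.4. With those cells counted as epithelial, the log2 ratio was 1.37 instead of 2.03 for Osr2 and 1.13 instead of 2.85 for Six2, and Dach1 went from 0.89 to 0.21. The number of members higher in RP then was 9, with 1 higher in 377P.

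**Figure D3:**
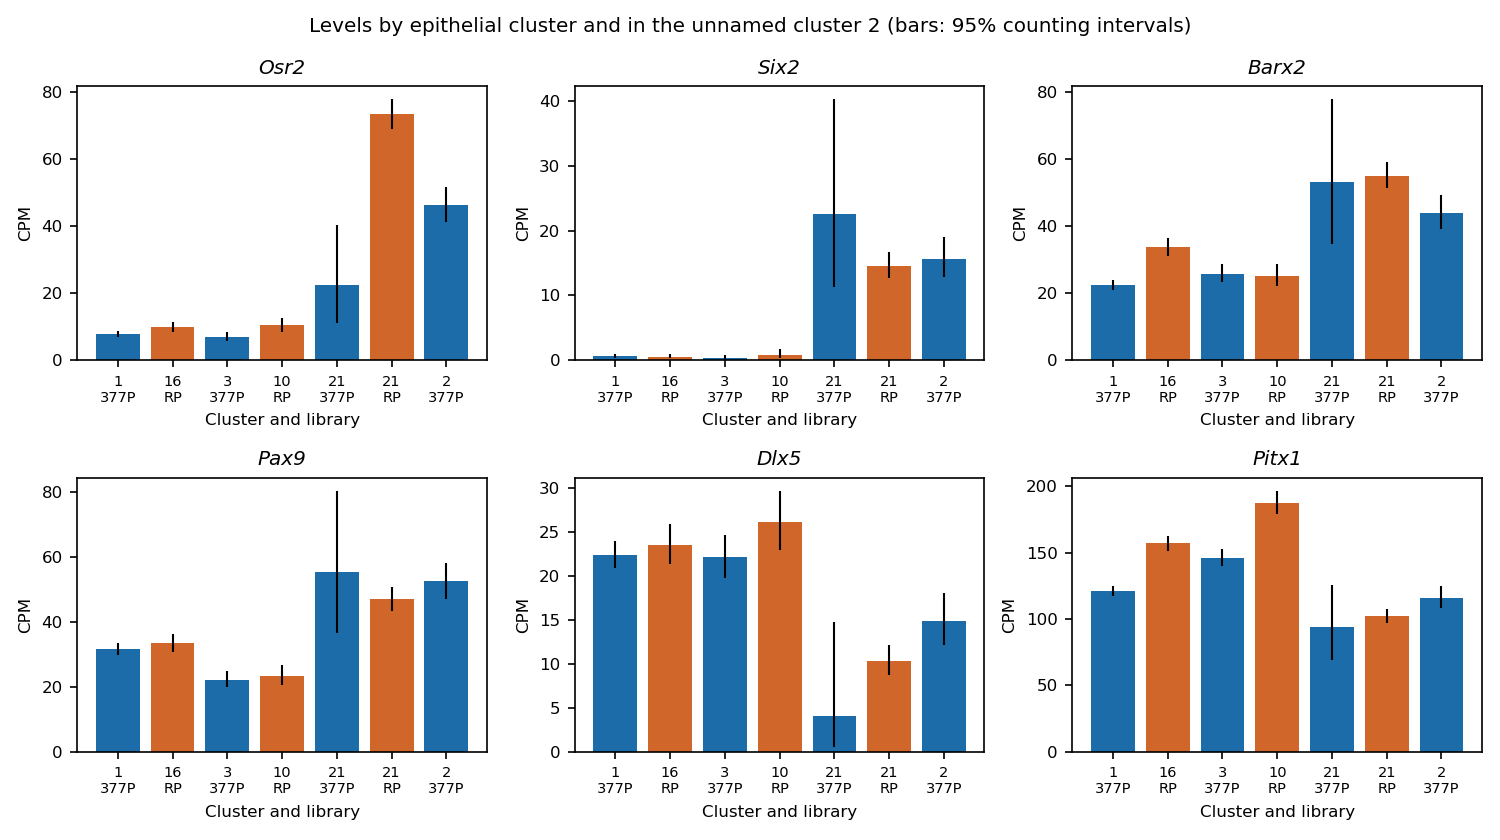
Levels (CPM; lines are exact 95% Poisson intervals) of Osr2, Six2, Barx2, Pax9, Dlx5 and Pitx1 in the epithelial clusters of 377P (blue) and RP (orange) and in the unnamed 377P cluster 2 led by Scgb1c1. Osr2 and Six2 are high in cluster 21 and in cluster 2 and low in the other clusters of both libraries, while Dlx5 is lower in cluster 21 and cluster 2.

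In the gland and respiratory epithelial cells, 16 members had enough counts, 2 higher in RP (8.39% of all genes) and 8 higher in 377P (11.6%). Pax3 was 11.2-fold higher in 377P (6.69 to 19.2), at 11.98 against 1.07 CPM on 40 and 26 UMIs, and Barx2 2.73-fold (2.13 to 3.47). Pax3 stood at 9.16 times the lymphocyte level in 377P and 0.6 times in RP, so the RP level was at that of free RNA, and Barx2 at 8.85 and 3.73 times. Pitx1 was 1.57-fold higher in RP (1.38 to 1.8), at 116 against 73.7 CPM, 6.08 and 5.93 times the lymphocyte level of each library. Prrx1 was 1.62-fold higher in 377P (1.26 to 2.07), but at only 1.6 times the lymphocyte level there and 0.917 times in RP, while Six2, Msx1, Dlx5, Tbx15 and Twist1, on 10 to 111 UMIs, and Foxf1, on 4 and 53, had intervals that span a ratio of 1. All 8 fibroblast markers were higher in the 377P gland cells too, with 1169.8 against 600.3 CPM in sum, and their part in the result was not tested. Of the 15 gland markers, 5 were at least 1.5-fold higher in the RP gland cells and 1 in those of 377P. Pip was at 492 CPM in 377P and 7590 in RP, and Bpifb1 at 0.599 and 702. The part of differing kinds of gland cell in the ratios was not tested either. The class held 227 cells in 377P and 1520 in RP, and when each library was clustered by itself the log2 ratio of Barx2 went from -1.45 to 0.82, that of Six2 from -0.90 to 0.47 and that of Dlx5 from -0.87 to 0.056. Pax3 and Pitx1 kept their direction, Pitx1 at 0.41, under the limit. Pax9 and Osr2 had ratios of 1.04 and 1.11.

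Within fibroblasts, the members' levels over the 9 matched subsets ran alike in the 2 libraries. The Spearman correlation of a gene's 9 subset levels between libraries had a median of 0.71 over 24 members and 0.35 over all genes, and 17 of the 24 had 0.5 or more, against 38.0% of all genes; the subsets of a library share its depth and free RNA. The single top subset was less stable, the same in both libraries for Prrx1, Lhx8, Tbx15 and Tbx18, 4 of 24, against 29.1% of all genes. That count was 16 of 24 with doublets kept (39.5% of all genes), 9 of 25 with cells of at least 1000 UMIs (33.4%), 8 of 23 with gated subsets (28.4%) and 3 of 23 at a finer clustering (27.4%), so it rests on the choice of cells.

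The subset with bone and ligament genes (subset 6, led by Gpx3, Mmp13, Tnn and Ibsp) was rich in Prrx1, at 706 CPM in 377P and 732 in RP, 1.47 and 1.74 times the other fibroblasts. It was low in Osr2, at 41.8 and 63.4 CPM, 0.302 and 0.415 times the others. Osteoblast marker RNA was 485 and 315 CPM in this subset, the highest of the 9 in each library. Subset 2, led by Csmd1, Timp1, Cxcl12 and Il6, had Prrx1 at 700.1 and 657 CPM and Shox2 at 188 and 184, 1.61 and 1.84 times the others, and low Barx1, at 0.341 and 0.293 times. Subset 9, led by Apod and Reln, held 43 and 98 cells and was nearest to the perineurial or endoneurial markers in each library. It had Prrx1 at 0.252 and 0.302 times the others and Osr2 at 232 and 213 CPM, 1.86 and 1.55 times. Prrx2, Barx1, Twist1, Foxf1, Six2 and Shox2 were also at their lowest there in each library, while Tbx18 was at its highest. Prrx1 and Osr2 thus ran opposite over the 9 subsets, with Spearman correlations of -0.85 and -0.83.

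Subset 5, led by Pcsk2, Myoc and Apoe, was high in Pax3, Alx1, Prrx2 and Pax9, among others. Foxf1 and Foxf2 were also highest there in 377P, at 119 and 30.9 CPM, but not in RP. Pax3 was at 126 CPM in 377P and 85.6 in RP, 4.48 and 4.37 times the other fibroblasts. Alx1 was at 53.2 and 62.3 CPM, 3.08 and 3.43 times the others. Prrx2 was at 247 and 212 CPM, 2.07 and 2.13 times, and Pax9 at 199 and 144, 2.52 and 1.69 times. Tbx15 was low there, at 0.226 and 0.0988 times the others. In the small subset 8, led by Igfbp2 and Itga8, Pax3 was also high, at 2.63 and 5.97 times the others. Alx1, Prrx2 and Pax9 were higher there than in subset 5 in RP, at 77.7, 233 and 298 CPM, and lower in 377P, at 30.1, 159.9 and 149 CPM.

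Subset 4, led by Pcdh10, Lgr5, Cilp and Sema3a, had Tbx15 at 101 and 80.2 CPM, 3.45 and 2.46 times the others, with Lhx8 at 2.19 and 1.40 times and Twist2 at 2.10 and 1.61 times. Subset 1, led by Opcml, Ccn3 and Ccl2, had Dach1 at 3.78 and 3.82 times the others and Barx1 at 1.90 and 1.87 times, and little Alx1 (0.0801 and 0.154 times) or Msx1 (0.449 and 0.228 times). Of 276 pairs of members, 9 had a Spearman correlation of 0.7 or more over the 9 subsets in both libraries, as did 0.242% of 74474910 pairs of all genes with enough counts. They were Prrx2 with Pax9, Twist1 and Foxf1, Pax9 with Pax3, Msx1 with Prrx1, Alx1 with Alx4, Lhx8 with Shox2, Pitx1 with Tbx15, and Tbx15 with Tbx18. The 3 pairs at -0.7 or less in both, against 0.17% of all gene pairs, were Prrx1 with Osr2, Alx1 with Tbx15, and Alx4 with Dach1. Over these subsets Pitx1 ran from 9.37 to 19.6 CPM in 377P and from 9.58 to 30.6 in RP. That is around its lymphocyte level of 12.4 and 19.1 CPM, and the part of free RNA in its order was not tested. Alx4 fell to 0.249 CPM in its lowest subset of 377P and to 0 in that of RP.

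**Figure D4:**
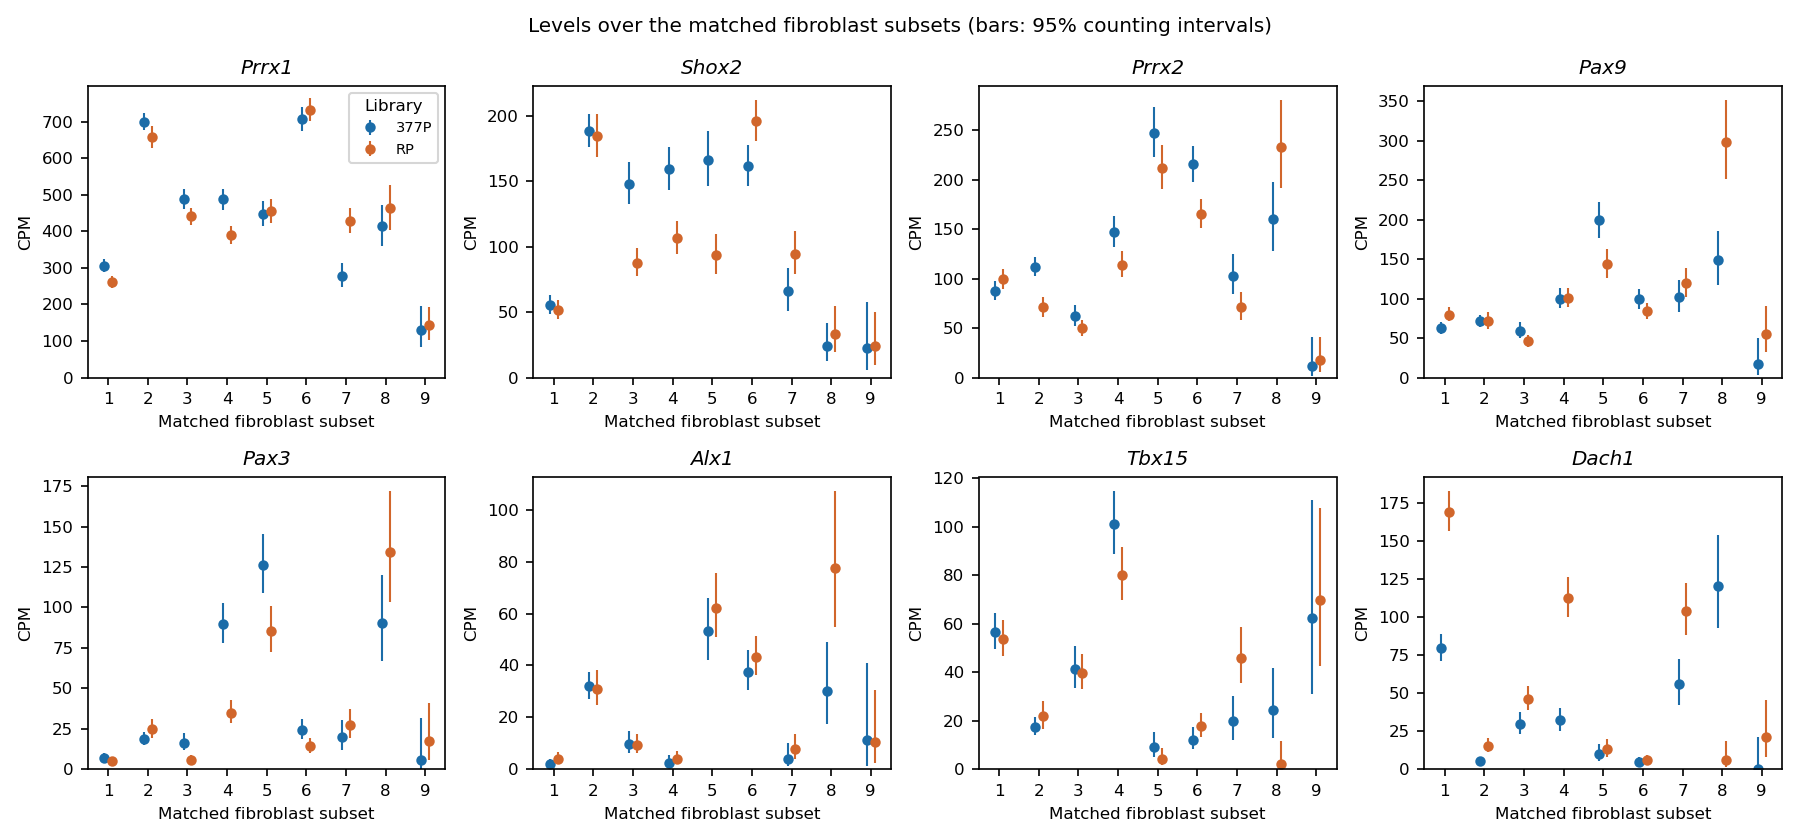
Levels (CPM; lines are exact 95% Poisson intervals) of 8 members over the 9 matched fibroblast subsets in 377P (blue) and RP (orange). Prrx1 is high in subsets 2 and 6 and low in subset 9 in each library, Pax3, Alx1, Prrx2 and Pax9 are high in subset 5, and Dach1 in subset 1.

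Perivascular cells were matched in 5 subsets, and 6 of 10 members had the same top subset in both libraries, against 45.6% of all genes. The Spearman correlation of the 5 subset levels between libraries had a median of 0.60 over the 10 members and 0.60 over all genes, and 8 of the 10 had 0.5 or more, against 50.3% of all genes. Subset 4, led by Pcp4, Prlr and Grem1, was small, 43 cells in 377P and 63 in RP. It had Shox2 at 316 and 306 CPM, 5.78 times the other perivascular cells in 377P (4.41 to 7.56) and 7.17 times in RP (5.43 to 9.40). Prrx1 was at 734 and 861 CPM there, 2.35 and 3.23 times the others, and Osr2 at 161 and 130.1 CPM, 4.73 and 3.76 times. Barx1 was lower there, at 0.525 and 0.344 times. Smooth muscle markers were high in subset 4, with 22579 and 20552 CPM in sum, and fibroblast markers came to 5636 and 2346 CPM, against 765 to 6287 in the 4 other subsets. Subset 2, led by Ccl11, Tnc and Ccl2, held more fibroblast marker RNA, 6287 and 5070 CPM, and had less Shox2, at 127 and 94.6 CPM. Foxf1 was highest in subset 2, at 136 and 125 CPM, 1.99 and 1.84 times the others. Dach1 was highest in subset 5, led by Ednrb and Slc12a2 and richest in pericyte markers, at 49.8 and 44.1 CPM on 8 and 20 UMIs.

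Epithelial cells were matched in 5 subsets, and 5 of 19 members had the same top subset in both libraries, against 49.1% of all genes. The median Spearman correlation between libraries was 0.50 over the 19 members and 0.60 over all genes, and 9 of the 19 had 0.5 or more, against 58.8% of all genes. Subsets 3 and 5 shared the high Barx2, at 74.3 and 67.2 CPM in subset 3 and 78.3 and 53.2 in subset 5, and the high Pax9, at 84.3 and 46.1 and at 65.0 and 40.7 CPM. Osr2 there was at 16.1 and 73.6 CPM in subset 3 and 16.9 and 80.8 in subset 5, and in the 3 other subsets at 4.98 to 9.70. In these 2 subsets Osr2 was higher in RP and Barx2 was not. Mal and Sprr1a, which led cluster 21, were also among the leading genes of subset 5, which held 177 and 377 cells. Cluster 21 held only 34 cells of 377P, so most of the 177 came from other clusters. The unnamed cluster of 443 cells of 377P was not part of these subsets. Whether subset 5 holds the same cells in both libraries was not tested. Subset 3 was the loosest match, with a profile correlation between libraries of 0.461 against 0.762 to 0.855 in the others. It may thus not hold the same cells in both libraries. Matched subsets held 2437 of 3321 epithelial cells of 377P and 3087 of 3807 of RP. Barx2 was higher in RP in subsets 1 and 2, at 16.2 against 4.06 CPM and 28.8 against 6.06.

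Other genes of face patterning were compared between the fibroblasts of the 2 libraries in the same way. Of 40 further craniofacial and neural crest transcription factors, 35 had enough counts, 2 were higher in RP and 1 was higher in 377P, with a median log2 ratio of 0.08. These shares were near those of all genes, 4.72% and 4.51%. Zeb1, a zinc-finger factor of mesenchyme, was at 438 CPM in 377P and 462 in RP. Among the genes past the limit, Runx2, the master factor of bone formation, had a ratio of 1.59 (1.49 to 1.70), and Tfap2c was 1.69-fold higher in 377P (1.38 to 2.09). Of 28 signals and receptors that pattern the face, 26 had enough counts and 0 passed the limit in either direction, with a median of -0.07. The Wnt modulator Sfrp2 was at 623 and 559 CPM and the FGF receptor Fgfr1 at 552 and 617. The widest were Ptch1, the Hedgehog receptor, with a ratio of 1.46 (1.31 to 1.64), and the ligand Wnt10a, 1.45-fold higher in 377P (1.19 to 1.78). All 39 Hox genes together had 62 UMIs in the fibroblasts of both libraries, 0.994 and 1.89 CPM in sum, and 32 of the 62 were Hoxd8.

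Several members were high in clusters too small to compare between the libraries. A cluster of 93 RP cells led by Dok6, Plppr1 and Kcnip4 and left without a name had Osr2 at 142 CPM (118 to 170.0), Msx1 at 64.9 and Prrx1 at 64.9, beside high Msx2, Twist2 and Dlx2 to Dlx5. In 71 cells of 377P with neuronal markers, Omp and Chga among them, Dach1 was at 101 CPM (77.6 to 129) and Dlx6 at 24.0. In 58 chondrocytes of RP, Prrx1 was at 158 CPM (122 to 202) and Barx1 at 63.4.

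**Figure D5:**
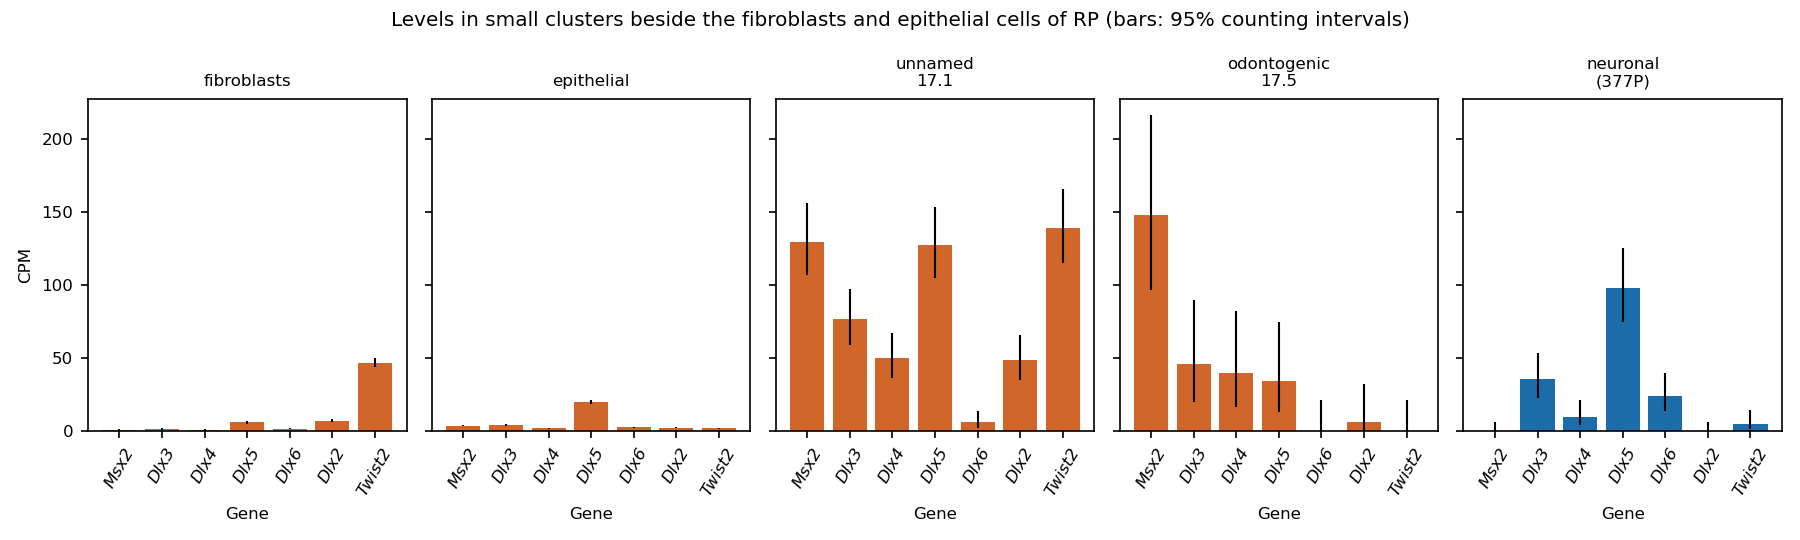
Levels (CPM; lines are exact 95% Poisson intervals) of Msx2, Dlx2 to Dlx6 and Twist2 in the fibroblasts and epithelial cells of RP, in the unnamed 93-cell RP cluster led by Dok6, in 20 odontogenic RP cells and in the neuronal cells of 377P (blue). Msx2, Dlx5 and Twist2 are high in the unnamed cluster, Msx2 in odontogenic cells and Dlx5 in neuronal cells.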

How the data were processed

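The deposited files hold UMI counts per gene and cell of 2 libraries made with 10x 3' v3 kits, per the labels' protocols. The authors used Cell Ranger, which per the file headers was version 7.0.1, with STAR and mm10 per the submitters' processing notes. Here, cells were dropped below 200 genes or above 20% mitochondrial RNA, doublets were called with Scrublet and removed within each library (836 and 569 cells), and cells were clustered (Scanpy 1.11.5, 3000 variable genes, Leiden resolution 1) without the 29 genes or the companion lists. Classes came from marker genes. UMIs were summed per class and library and divided by the class total (CPM). A gene was compared between libraries in classes of at least 200 cells in each library with at least 50 UMIs in both together, and called at 1.5-fold. Levels needed 50 cells in each library, and top classes 50 UMIs in each. Gene positions are from GENCODE on GRCm38, the assembly called mm10. All 29 members are named, with the fullest values for those with most UMIs, past the limit or with the same top class; from each companion list, the 2 highest and the 2 with the widest ratio in fibroblasts, and Runx2 because it passed the limit; some genes of these lists are not reported here. Ratios were also run on Poisson counts simulated at the fibroblast means. Those counts hold no spread between libraries, so they cannot show whether a ratio would repeat. The members and lists were chosen with earlier results of these data known. Alternatives are in the closing section.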

Additional observations from a re-analysis of the deposited data

Results flagged for a closer look

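Some members were high in cells outside the compared classes, each over the highest level of that gene in any compared class of the same library. In the unnamed RP cluster of 93 cells led by Dok6 and Plppr1, Msx2 was at 129.7 CPM, Dlx2 at 48.7, Dlx3 at 76.5, Dlx4 at 49.8, Dlx5 at 127.4 and Twist2 at 139.0, where the highest class levels in RP were 3.41, 6.73, 4.06, 1.66, 19.6 and 46.7 CPM. In 20 odontogenic RP cells, led by the enamel genes Amelx, Enam and Ambn, Msx2 was at 148.1 CPM on 26 UMIs. In an unnamed RP cluster of 121 cells led by Ccer2 and Cxcl13, Msx2 was at 30.9 CPM and Barx2 at 120.9. In 71 neuronal cells of 377P, Dlx3 was at 35.2 CPM and Dlx5 at 97.7.

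Some members were past the limit in opposite directions in different classes, and the difference between the classes was not tested. Barx2 had a log2 ratio of RP over 377P of 0.73 in epithelial cells and -1.45 in gland cells. Tbx15 had 1.42 and -0.80, and Six2 2.85 and -0.90, in the same classes. Foxf1 had 0.86 in gland cells, on 4 and 53 UMIs, and -0.90 in blood endothelial cells.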

How the results depend on the processing

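No paired analysis was possible because each title has 1 library, and for the same reason no replicate could be left out. The same top class in both libraries held for 21 to 24 of the same 24 members under 7 other choices of cells. Lost were Dlx3, Dlx4 and Pax3 with doublets kept, Dlx6 with libraries clustered alone, and Msx2 with gates. With equal weights, Dlx1, Dlx6 and Pax3 were lost. Of 446 recomputed values, 343 moved by less than their limit, 91 moved and 12 turned direction.

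The count of members past the limit in fibroblasts, 1 higher in RP and 0 in 377P, was 0 and 1 with marker gates. The RP count was 2 with cells weighted equally, 3 and 4 with a minimum of 20 UMIs and with none, and 0 at a 2-fold limit. In perivascular cells, the RP count was 2 with gates, 2 and 6 with the lower minimum and with none, and 0 at 2-fold. The 377P count there was 0 with doublets kept, 2 with each library clustered alone, 4 with gates, 0 with equal weights, 2 and 3 with the lower minimum and with none, and 0 at 2-fold. In epithelial cells, the RP count of 11 was 6 with gates and 7 at 2-fold, and the 377P count was 1 with equal weights and 1 with the unnamed Scgb1c1 cluster added. In gland cells, the RP count of 2 was 1 with gates and 0 at 2-fold, and the 377P count of 8 was 4 with libraries clustered alone, 17 with no minimum and 2 at 2-fold. In blood endothelial cells, the RP count of 5 was 2 with doublets kept, 3 with cells of at least 1000 UMIs, 2 with gates, 9 with no minimum and 0 at 2-fold, and the 377P count of 1 was 2 with equal weights, 5 with no minimum and 0 at 2-fold. The 16, 8 and 9 members with the same top fibroblast subset (doublets kept, gates, at least 1000 UMIs) stand against 4. Of the further transcription factors, 0 were higher in RP with doublets kept, and 1 Hox gene was higher in RP with a minimum of 20 UMIs, 5 in each direction with none.

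The log2 ratios that turned were Dach1 in fibroblast subset 8 (-4.26), Pitx1 in perivascular cells with doublets kept (-0.091) and Osr2 in blood endothelial cells with doublets kept (-0.037). In single epithelial subsets, Barx1 turned in subset 1 (-0.14), Barx2 in subsets 3 (-0.14) and 5 (-0.56), Tbx15 in subset 4 (-0.27) and Dach1 in subset 1 (-0.047). In gland cells, Dlx5 (0.056), Barx2 (0.82) and Six2 (0.47) turned with libraries clustered alone and Foxf1 (-0.95) with gates. The cause of these shifts was not tested. The alternatives of single subsets and of the added cluster were chosen after seeing the data. Gland cells could not be compared with doublets kept, at most 10% mitochondrial UMIs or at least 1000 UMIs, since 377P then had 171, 162 and 173 cells. Members under the UMI minimum are limited by depth.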
